A study of Mus musculus with 3 samples.

Results

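The genes described here encode the structural proteins of the sarcomere, its Z-disc and its M-band, and the kinases, chaperones and ubiquitin ligases bound to them. They are a list of 34 genes chosen by role, all of which had a row in each deposited table, among 55401 mouse genes in all. Myosin heavy chain, actin and troponin isoforms were left out of the list. The wells came from adult mouse hearts, 1 library for each of 3 days, and were dispensed on the iCELL8 nanowell platform. The library of day 1 carries the genotype label D1_INO80_OE, that of day 2 D2_INO80_OE, and that of day 3 both D3_INO80_OE and D3_Ctrl. All 3 are labelled as treated with tarmoxifen (tamoxifen). The series title names Myh6-MCM;Ino80fl/fl hearts, in which a tamoxifen-dependent Cre is driven by a cardiomyocyte myosin promoter and Ino80 is floxed, whereas the genotype labels read as overexpression. Ino80 is the ATPase of a chromatin remodelling complex. The labels used here give no age, strain or number of animals, and day 0, which the design names, was not analysed here. No file says which day 3 wells carry which label, so these wells were split only by their own Ino80 level. Ino80-high wells held at least 1000 counts of Ino80 per 1000000 nuclear-encoded counts (CPM) and Ino80-low wells under 100 CPM, and neither is called a genotype.

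The sarcomere is the contractile unit of striated muscle. Thick filaments of myosin slide along thin filaments of actin, which are anchored at the Z-disc, while the M-band holds the thick filaments in register. Titin spans from Z-disc to M-band as a molecular spring, and the Z-disc carries a layer of LIM, PDZ and filamin proteins that bear and sense strain. In cardiomyocytes many of these genes are known targets of the transcription factors MEF2 and SRF, whose sites are the MEF2 site and the CArG box.

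The RefSeq table of promoter windows (GRCm38.p6, 250 bases before to 50 bases after a start) matched 28 of the 34 members. Fhod3, Tcap, Nexn, Xirp1, Myom2 and Fbxo32 were not matched. The windows were searched on both strands for the CArG box, the MEF2 site, the MCAT element CATTCC and the TATA element TATAAA, using the most upstream start of each gene in the table. A CArG box was found in 5 of the 28 member windows, against 1.59% of 27025 windows of all genes. The MEF2 site was in 8 of 28 windows, against 3.29%, the MCAT element in 7 against 14.7%, and TATAAA in 5 against 14.2%. Which start is used in these wells was not measured, and a match is a description of the letters only. The 5 windows printed next belong to members on both sides of the day 3 comparison, and capitals mark every match. Fhl1 and Synpo2l were higher in Ino80-high wells, and Fhl2, Mylk4 and Ttn were lower there.
Fhl1, chrX:56779433-56779732, strand plus: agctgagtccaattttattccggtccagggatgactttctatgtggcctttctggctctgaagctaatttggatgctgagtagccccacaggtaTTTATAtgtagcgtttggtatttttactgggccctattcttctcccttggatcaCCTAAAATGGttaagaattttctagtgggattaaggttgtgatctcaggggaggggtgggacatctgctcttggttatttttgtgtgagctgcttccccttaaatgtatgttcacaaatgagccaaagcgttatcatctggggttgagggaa
Synpo2l, chr14:20668305-20668604, strand minus: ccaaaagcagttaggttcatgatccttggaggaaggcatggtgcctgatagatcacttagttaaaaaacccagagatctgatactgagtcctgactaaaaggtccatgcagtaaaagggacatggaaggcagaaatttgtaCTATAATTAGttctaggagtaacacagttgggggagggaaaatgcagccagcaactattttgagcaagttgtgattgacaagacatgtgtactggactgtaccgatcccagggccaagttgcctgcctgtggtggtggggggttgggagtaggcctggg
Fhl2, chr1:43196712-43197011, strand minus: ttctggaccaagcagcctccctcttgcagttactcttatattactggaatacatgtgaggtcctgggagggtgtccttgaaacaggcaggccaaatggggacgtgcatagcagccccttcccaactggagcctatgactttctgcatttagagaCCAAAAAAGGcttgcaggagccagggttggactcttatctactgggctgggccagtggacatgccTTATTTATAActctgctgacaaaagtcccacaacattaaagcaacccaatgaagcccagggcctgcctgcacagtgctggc
Mylk4, chr13:32783915-32784214, strand minus: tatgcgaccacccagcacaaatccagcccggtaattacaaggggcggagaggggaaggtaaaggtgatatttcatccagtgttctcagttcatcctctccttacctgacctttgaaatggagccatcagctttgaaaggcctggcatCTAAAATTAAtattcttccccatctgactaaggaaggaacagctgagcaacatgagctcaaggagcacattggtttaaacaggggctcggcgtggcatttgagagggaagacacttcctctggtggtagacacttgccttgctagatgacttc
Ttn, chr2:76982498-76982797, strand minus: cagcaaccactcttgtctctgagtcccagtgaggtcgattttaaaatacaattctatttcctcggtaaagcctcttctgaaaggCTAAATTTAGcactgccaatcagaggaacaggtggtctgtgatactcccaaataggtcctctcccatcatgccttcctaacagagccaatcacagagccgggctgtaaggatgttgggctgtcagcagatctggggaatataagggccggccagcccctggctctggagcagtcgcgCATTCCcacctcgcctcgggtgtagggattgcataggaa
Both LIM protein genes have a CArG box, and the windows of Synpo2l, Fhl2, Mylk4 and Ttn each have a MEF2 site, which in Fhl2 overlaps a TATAAA match. Of the windows of members that were higher, 1 of 4 held a CArG box and 1 of 4 a MEF2 site. Of those that were lower, 3 of 11 held a CArG box and 3 of 11 a MEF2 site, and of the others 1 of 13 and 4 of 13.

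The tables held 1232, 1063 and 1099 wells on days 1, 2 and 3, with total counts between 452070922 and 487461107 per library. Levels given are for the cardiomyocyte compartment, 582, 630 and 882 wells, which are the wells outside clusters named as another cell type, with atrial-like wells kept in. All 10 ventricular cardiomyocyte markers were above 5 CPM there, but the compartment was defined by exclusion. The day 1 wells were mostly in cluster 2, the day 2 wells mostly in cluster 5, and on day 3 the 399 Ino80-high wells were mostly in cluster 12 and the 437 Ino80-low wells mostly in cluster 3. Clusters 2, 5 and 12 were unnamed, and cluster 12 had 3 skeletal muscle markers at least 2-fold up, none of them among its 10 leading genes. Fhl2, Mylk4 and Fhod3 are among the 10 leading genes of cluster 3, and Flnc among those of cluster 5. Each day is a single library, which leaves no replicate spread to test against. A member was counted as higher or lower when it was at least 1.5-fold apart at a mean of at least 5 CPM. The exact 95% intervals treat each read as independent, and the reads carried no molecular identifiers. They cover the counting of reads alone and can be narrower than the error in counting molecules. Between libraries each difference compares libraries, and fewer cells of a type cannot be told apart from less RNA per cell in pooled counts. The libraries shared between 247 and 278 well barcodes in pairs, and 67 occurred in all 3. Ino80 stood at 3034 CPM in Ino80-high wells and 18.1 CPM in Ino80-low wells of day 3, by construction, and at 2851 CPM on day 1 and 4941 CPM on day 2.

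Within the day 3 library, the sarcomere genes divided by Ino80. The Z-disc genes of filamin C, Xin, desmin and synaptopodin 2-like were higher in Ino80-high wells, together with Fhl1. Titin, nexilin, nebulette, Fhl2 and the cardiac myosin light chain kinase stood among the genes that were lower. The ventricular light chains and tropomyosin differed by less than 1.5-fold. Of the 34 members, 5 were higher and 14 were lower, against 38.9% higher and 20.8% lower of the 7913 genes measured. The median log2 ratio of the members was −0.33, and that of all measured genes was 0.27. At 2-fold, 5 members were higher and 11 lower, against 24.8% and 12.4% of genes. Median-of-ratios scaling, which puts the median of all genes at 0.00, gave 5 higher and 17 lower. Shares of all genes were not computed for that scaling. The plot of the ratios by role shows all 34 members.

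**Figure D1:**
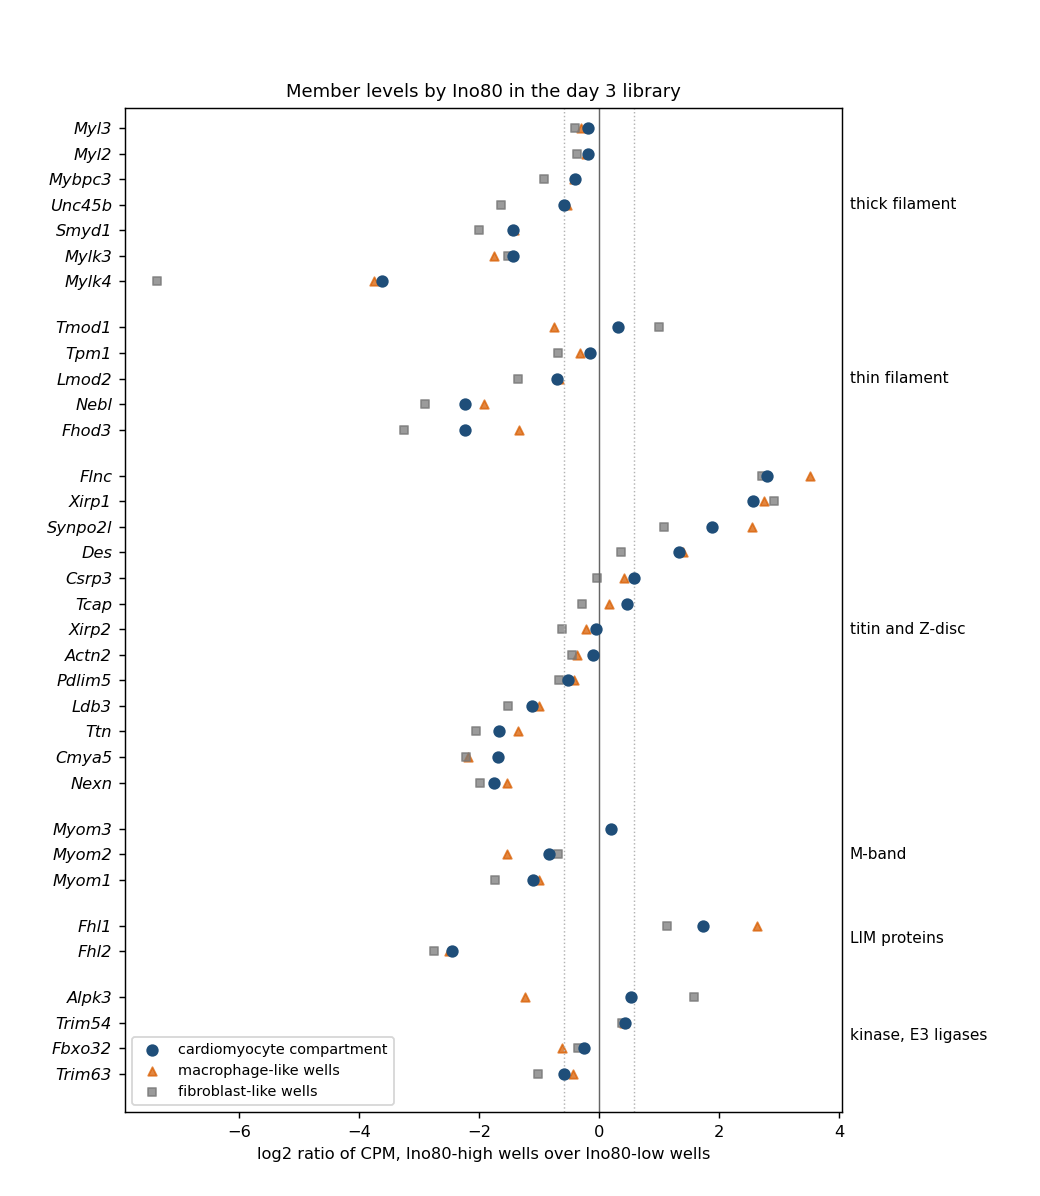
Log2 ratio of pooled CPM, Ino80-high over Ino80-low wells of day 3, for each member, grouped by role; the solid line marks 0 and the dotted lines 1.5-fold in each direction. Circles are compartment wells (399 Ino80-high, 437 Ino80-low), triangles macrophage-like wells (43 and 35) and squares fibroblast-like wells (31 and 42); Myom3 is shown for the compartment only. Flnc, Xirp1, Synpo2l, Des and Fhl1 lie to the right in all 3 classes, and Mylk4, Fhl2, Nebl, Nexn and Ttn to the left.

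The thick filament genes held no member that was higher, and 4 of 7 were lower, against 38.9% higher and 20.8% lower of all genes. Each role holds few genes, so such shares are coarse. Mylk3 encodes the cardiac myosin light chain kinase, which phosphorylates the regulatory light chain. It stood at 196 CPM in Ino80-high wells (95% interval 193 to 198), with a median per well of 101 CPM (quartiles 25.9 to 290.2), and at 532 CPM in Ino80-low wells (528 to 535), with a median of 497 CPM (255 to 775). The log2 ratio was −1.44 (−1.46 to −1.42), and the ranges between quartiles met only in the span from 255 to 290.2 CPM. Mylk4, a related kinase, had the lowest ratio of all members. Its pooled level was 13.2 CPM in Ino80-high wells, where a single well gave 29.1% of the counts, and 162 CPM in Ino80-low wells, a log2 ratio of −3.62 (−3.69 to −3.54). The median well held 0 CPM of Mylk4 in the Ino80-high wells and 63.9 CPM in the Ino80-low wells. Smyd1 is a methyltransferase needed for sarcomere assembly, and Unc45b is a myosin chaperone. Smyd1 stood at 134 CPM in Ino80-high and 363 CPM in Ino80-low wells (log2 ratio −1.43), and Unc45b at 75.3 and 113 CPM (−0.59), just past the threshold.

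The light chains themselves were close to each other in the 2 well groups. Myl2, the ventricular regulatory light chain, was at 15250.5 CPM in Ino80-high and 17480.2 CPM in Ino80-low wells, with medians per well of 14958 and 17383 CPM. The log2 ratio was −0.20 for Myl2 and also −0.20 for Myl3, the ventricular essential light chain, and the quartile ranges of both genes overlapped. Mybpc3, cardiac myosin binding protein C, was at 1469.7 and 1948 CPM (−0.41). Per kilobase of exon, Myl2 was the most abundant member, at 7821 CPM per kilobase in Ino80-high and 8964 in Ino80-low wells. Myl3 followed at 6948 and 7961, and the quartile ranges of these neighbours per well overlapped within each group.

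Among thin filament genes 3 of 5 were lower and none of the 5 was higher, against 20.8% lower and 38.9% higher of all genes. Nebl encodes nebulette, which ties thin filaments to the Z-disc. It was at 92.5 CPM in Ino80-high wells (median 33.7, upper quartile 128) and 435 CPM in Ino80-low wells (median 392, lower quartile 198). The ranges between quartiles did not meet, and the log2 ratio was −2.24 (−2.26 to −2.21). Fhod3, a formin that maintains thin filaments, had the same log2 ratio of −2.24, at 39.5 CPM in Ino80-high and 186 CPM in Ino80-low wells. Lmod2, a leiomodin that elongates actin at the pointed end, was at 231 CPM in Ino80-high and 378 CPM in Ino80-low wells (−0.71). Tropomyosin, Tpm1, the most abundant of the group, was at 19642 and 21849 CPM in these wells (−0.15), and the pointed-end cap Tmod1 at only 23.0 and 18.5 CPM (0.31).

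The titin and Z-disc genes went both ways, with 4 of 13 higher and 4 of 13 lower. That is 30.8% in each direction, near the 38.9% higher and 20.8% lower of all genes. Flnc encodes filamin C, an actin crosslinker recruited to damaged myofibrils, and Xirp1 encodes Xin, an actin-binding partner of filamin C. Flnc lies on chromosome 6 at 29433256 to 29461883 of mm10, on the plus strand. It was at 357 CPM in Ino80-high wells (95% interval 353 to 360.1) and 51.2 CPM in Ino80-low wells (50.2 to 52.3), a log2 ratio of 2.80 (2.77 to 2.83). The median well held 297 CPM (quartiles 132 to 498) in the Ino80-high and 18.3 CPM (6.23 to 70.0) in the Ino80-low wells, so the ranges between quartiles were separate. Xirp1 was at 250.3 CPM in Ino80-high and 42.6 CPM in Ino80-low wells (log2 ratio 2.55), with medians per well of 163 and 5.83 CPM, and its quartile ranges were separate as well. Desmin, Des, the intermediate filament that links Z-discs sideways, was at 1029.7 CPM in Ino80-high wells (quartiles per well 729 to 1288) and 409 CPM in Ino80-low wells (265 to 556). Its log2 ratio was 1.33 (1.32 to 1.35), and again the quartile ranges did not meet. Synpo2l, an actin-bundling Z-disc protein whose promoter window is printed above, was at 287 and 78.3 CPM in these wells (1.88). Its counts were spread less evenly, with medians per well of 69.8 CPM in Ino80-high and 8.28 CPM in Ino80-low wells, and its quartile ranges overlapped.

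Titin, nexilin, Cmya5 and Ldb3 were the 4 members of this group that were lower. Ttn was at 5638 CPM in Ino80-high wells (95% interval 5625 to 5652) and 17954 CPM in Ino80-low wells (17934 to 17974), a log2 ratio of −1.67. The median well held 4283 CPM (quartiles 3002 to 6309) among Ino80-high and 13292 CPM (10155 to 27401) among Ino80-low wells, with no overlap between the quartile ranges. The gene lies on chromosome 2 at 76703980 to 76982547 of mm10, on the minus strand, with 116825 exonic bases. It is the longest of the members. Nexn, nexilin, a filamentous actin-binding protein of the Z-disc, was at 681 CPM in Ino80-high wells (quartiles 317 to 883) and 2293 CPM in Ino80-low wells (1750.4 to 2774), a log2 ratio of −1.75 (−1.76 to −1.74). Its exons overlap those of Gm43185 on the same strand, so its counts could include reads of that gene. Cmya5, or myospryn, a large protein that binds alpha-actinin, was at 158 CPM in Ino80-high and 507 CPM in Ino80-low wells (−1.68). Its exons overlap those of A630019I02Rik and Gm4814 on the opposite strand, by 2570 bases summed over these genes. The strand setting of the counting is not recorded, so reads of those genes could be included. Ldb3, the PDZ-LIM protein Cypher, was at 309 CPM in Ino80-high and 675 CPM in Ino80-low wells (−1.13).

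The other 5 genes of the group were within 1.5-fold. Actn2, the alpha-actinin that crosslinks actin at the Z-disc, was at 1729 CPM in Ino80-high and 1863 CPM in Ino80-low wells (log2 ratio −0.11). Xirp2, a Xin relative, was at 1115 and 1153 CPM (−0.05). Csrp3, the muscle LIM protein, was at 5840.5 CPM in Ino80-high and 3925 CPM in Ino80-low wells, a log2 ratio of 0.57 that lay just short of the threshold of 0.58. Tcap, telethonin, which joins a pair of titin molecules at the Z-disc, was at 3859.8 and 2799 CPM (0.46), and Pdlim5 at 399 and 576 CPM (−0.53).

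**Figure D2:**
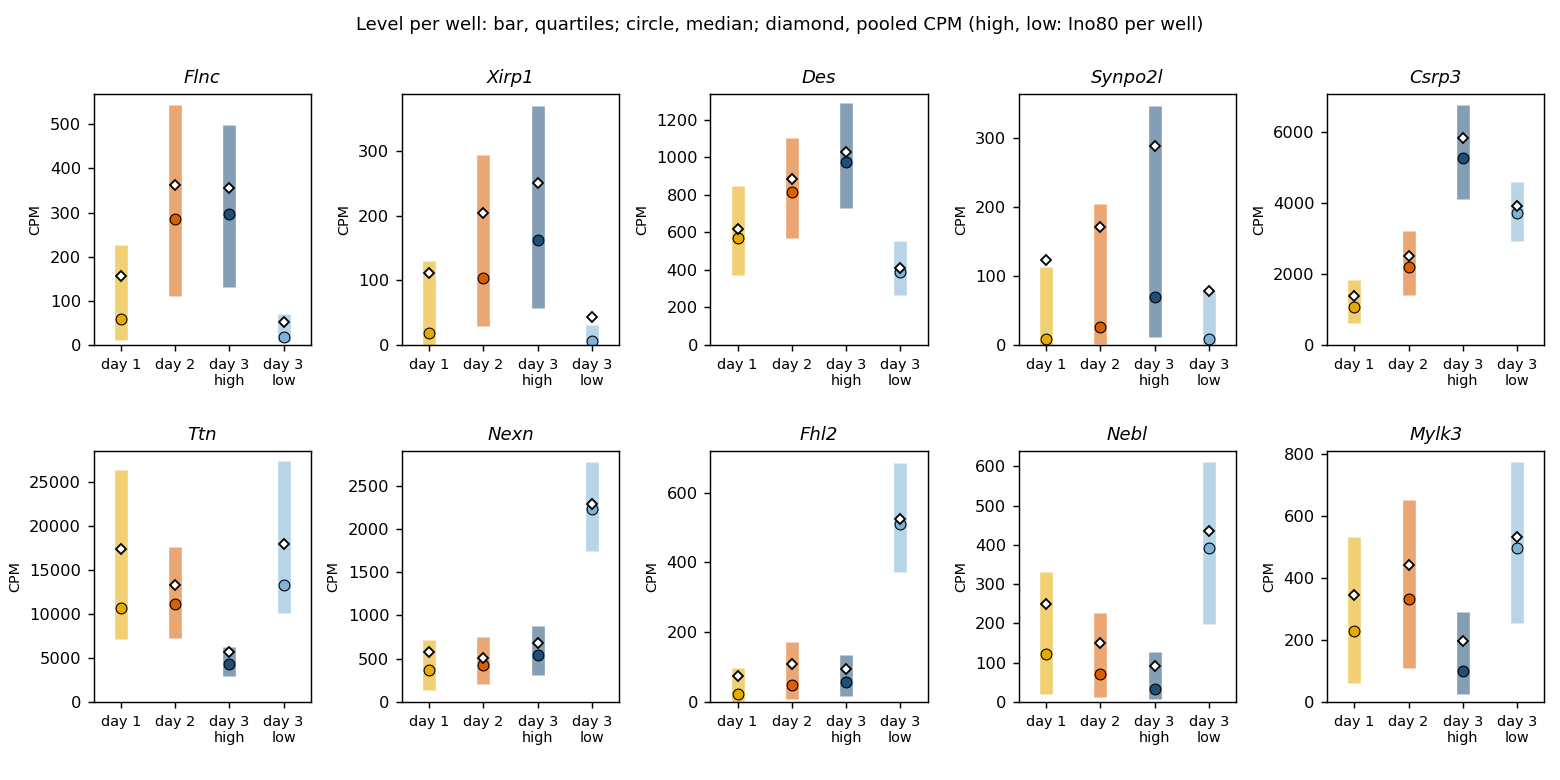
Level per well in CPM of 10 members in compartment wells of day 1 (582), day 2 (630), day 3 Ino80-high (399) and day 3 Ino80-low (437). Bars span the quartiles over wells, circles are medians and diamonds the pooled CPM. Nexn and Fhl2 have their highest bars in the Ino80-low wells, Ttn is lowest in the Ino80-high wells, and Csrp3 is lowest on day 1, where its median is 1084 CPM.

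At the M-band, Myom1 and Myom2, the myomesins that crosslink myosin and titin, were both lower. They are 2 of 3 genes of this role, against 20.8% lower of all genes. Myom1 was at 341 CPM in Ino80-high and 736 CPM in Ino80-low wells (log2 ratio −1.11), and Myom2 at 145 and 259.6 CPM (−0.84). Myom3 was barely detected, at 9.08 and 7.93 CPM with a median of 0 in both well groups. The LIM proteins Fhl1 and Fhl2, which bind titin and act in hypertrophic signalling, went opposite ways. Fhl1 was at 230.3 CPM in Ino80-high wells (quartiles per well 24.8 to 275) and 69.4 CPM in Ino80-low wells (2.86 to 85.1), a log2 ratio of 1.73 (1.70 to 1.76) with overlapping quartile ranges. Fhl2, on chromosome 1 at 43123074 to 43196984, was at 95.1 CPM in Ino80-high wells (18.4 to 134) and 523 CPM in Ino80-low wells (374 to 686), a log2 ratio of −2.46 (−2.49 to −2.43) with separate quartile ranges. None of the 4 kinase and ubiquitin ligase genes reached 1.5-fold, against 38.9% higher and 20.8% lower of all genes. Alpk3, an alpha kinase of the M-band, was at 111 CPM in Ino80-high and 76.9 CPM in Ino80-low wells (0.53). The muscle ubiquitin ligases Trim63 (MuRF1), Fbxo32 (atrogin-1) and Trim54 (MuRF3) had log2 ratios of −0.58, −0.26 and 0.43.

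**Figure D3:**
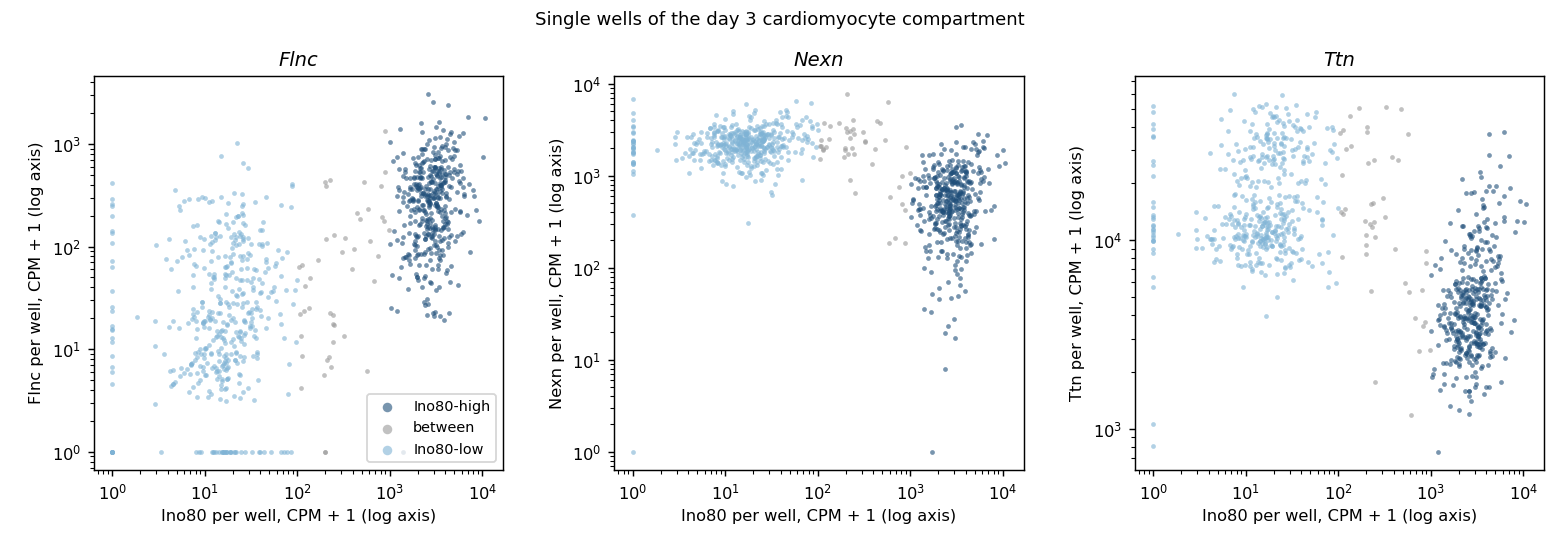
Level of Flnc, Nexn and Ttn against Ino80 in single compartment wells of day 3, as CPM plus 1 on log axes. Dark points are the 399 Ino80-high wells, grey points the 46 wells between the thresholds and light points the 437 Ino80-low wells. The wells form 2 clouds, with Flnc higher and Nexn and Ttn lower in the Ino80-high cloud.

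Transcripts of the sarcomere were also counted in wells of other cell types, with the same direction for the members apart in the compartment. Levels are given for Ttn and Flnc. In Ino80-high and Ino80-low wells of the compartment, Ttn was at 5638 and 17954 CPM and Flnc at 357 and 51.2 CPM. In macrophage-like wells of day 3 (43 Ino80-high, 35 Ino80-low), Ttn stood at 5202 CPM in Ino80-high and 13318 CPM in Ino80-low wells, and Flnc at 378 and 33.3 CPM. In fibroblast-like wells (31 Ino80-high, 42 Ino80-low), Ttn stood at 4297 and 17781 CPM in these wells, and Flnc at 296 and 45.2 CPM. All 5 members that were higher and all 14 that were lower in the compartment had the same sign in both classes. Of these, 5 and 13 were past 1.5-fold in macrophage-like wells, where 45.9% of genes were higher and 25.7% lower. In fibroblast-like wells 4 and 14 were past it, where 47.6% were higher and 28.4% lower, and Des was the exception at 0.36. The macrophage-like wells held 10 macrophage markers at a sum of 3409 CPM in Ino80-high and 2897 CPM in Ino80-low wells. Whether the sarcomere counts in these wells, or part of those in the compartment, came from RNA of other cells was not tested.

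Other measures moved with the same split. The 10 ventricular cardiomyocyte markers summed to 47477 CPM in Ino80-high and 88682 CPM in Ino80-low wells. They include Myh6, Tnnt2, Tnni3 and Tnnc1, sarcomere isoforms left out of the members, so this sum is not a measure apart from sarcomere genes. Tnnt2 was at 19511 and 30805 CPM in these wells, Tnni3 at 11155 and 18238 CPM and Myh6 at 4632 and 16166 CPM. Tnnc1 went the other way, at 6526 and 5677 CPM. The 9 fibroblast markers summed to 319 and 192 CPM, the 10 macrophage markers to 195 and 34.1 CPM, and the 10 endothelial markers to 697 and 336 CPM. The 9 skeletal muscle markers summed to 241 CPM in Ino80-high and 22.8 CPM in Ino80-low wells, with Myh1 at 0 in both, and the 9 atrial markers to 2533 and 1071 CPM. Median counts per well were 306900.0 in Ino80-high and 437537 in Ino80-low wells, and the median mitochondrial share was 19.7% and 22.2%. In wells with 20 to 35% mitochondrial counts, each of the 19 members kept its sign. Each also kept it in wells thinned to 30000 counts. Thinning leaves the expected CPM of a well unchanged, so this cannot show the part of depth. Exonic length had a Spearman rho of −0.27 with the log2 ratio over the 34 members and −0.06 over 7913 genes, as a description across genes. The part of these measures in the differences was not tested.

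The same genes were then followed over the first interval, in the libraries labelled as Ino80 overexpression. Day 2 was higher than day 1 for 8 members and lower for 2, against 18.4% higher and 9.09% lower of all 8316 genes measured, with a median log2 ratio of 0.37 over members and 0.13 over all genes. Flnc was again the highest, at 363 CPM on day 2 and 155 CPM on day 1 (log2 ratio 1.22, interval 1.20 to 1.25). Medians per well of Flnc were 285 CPM (quartiles 111 to 543) on day 2 and 59.8 CPM (11.1 to 226) on day 1, with overlapping quartile ranges. Fbxo32, the ubiquitin ligase atrogin-1, was at 225 CPM on day 2 and 103 CPM on day 1 (1.13), and Lmod2 at 414 and 197 CPM (1.07). Csrp3 was at 2515 CPM on day 2 and 1391 CPM on day 1 (0.85), and Xirp1 at 204 and 112 CPM (0.87). Smyd1, Tmod1 and Fhl1 had log2 ratios of 0.82, 0.87 and 0.66. At 2-fold, 3 members were higher (Flnc, Fbxo32 and Lmod2) and 0 were lower, against 6.13% and 2.98% of genes. The pair that was lower was Myom2, at 197 CPM on day 2 and 341 CPM on day 1 (−0.79), and Nebl, at 151 and 248 CPM (−0.72). Nebl fell short of 1.5-fold by mean CPM per well, and Nebl and Fhl1 did in wells thinned to 30000 counts. In wells with 20 to 35% mitochondrial counts Smyd1 and Fhl1 fell short, and Ttn was lower on day 2. With median-of-ratios scaling 7 members were higher and 3 lower, since Fhl1 fell short and Trim63 passed. The 9 atrial markers summed to 211 CPM on day 2 and 6774 CPM on day 1, and the 6 erythroid markers to 375 and 37.5 CPM. Without atrial-like wells 9 members were higher and 2 lower. Shares of all genes were not computed without these wells or with median-of-ratios scaling. The part of the erythroid counts in these differences was not tested.

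Day 1 and day 2 wells were next set against the Ino80-low wells of day 3, the wells with the least Ino80 in the series. These comparisons share their reference wells with each other and with the day 3 split, and differ in library as well as in Ino80. On day 1, 6 members were higher and 11 lower than in Ino80-low wells, against 31.4% and 9.71% of 7888 genes. On day 2, 9 were higher and 8 lower, against 41.5% and 8.97% of 8000 genes. At 2-fold, 3 were higher and 6 lower on day 1 (15.1% and 4.32% of genes), and 5 were higher and 5 lower on day 2 (22.1% and 3.84%). Fhl2 was at 73.9 CPM on day 1, 110.1 CPM on day 2 and 95.1 CPM in day 3 Ino80-high wells, against 523 CPM in Ino80-low wells. Nexn was at 582, 513 and 681 CPM in those 3 groups, against 2293 CPM in Ino80-low wells, and Mylk4 at 32.5, 35.8 and 13.2 CPM, against 162 CPM. Fhod3 stood at 44.5, 52.3 and 39.5 CPM, against 186 CPM in Ino80-low wells, and Nebl at 248, 151 and 92.5 CPM, against 435 CPM. These 5 genes were lower than in Ino80-low wells by at least 1.5-fold in all 3 groups. Flnc, Xirp1, Des and Synpo2l were higher by at least 1.5-fold in all 3, although with either other scaling Des and Synpo2l did not pass on day 1.

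For other members the 3 groups did not all pass 1.5-fold in the same direction. Ttn was at 17382 CPM on day 1, 13265 CPM on day 2 and 5638 CPM in day 3 Ino80-high wells, against 17954 CPM in Ino80-low wells. By this total titin passed 1.5-fold in the day 3 Ino80-high wells but not on day 1 or day 2. In wells with 20 to 35% mitochondrial counts it was also lower on day 1 and day 2, and with either other scaling on day 2. Cmya5 was at 485, 470.1 and 158 CPM in the same order, against 507 CPM, and Myom1 at 718, 823 and 341 CPM, against 736 CPM. Flnc and Xirp1, named above as higher in all 3 groups, had the lowest level of the 3 on day 1. Flnc was at 155, 363 and 357 CPM, against 51.2 CPM in Ino80-low wells, and Xirp1 at 112, 204 and 250.3 CPM, against 42.6 CPM. Fhl1 was at 44.6 and 70.8 CPM on days 1 and 2 and at 230.3 CPM in day 3 Ino80-high wells, against 69.4 CPM. Csrp3 was low early, at 1391 CPM on day 1 and 2515 CPM on day 2, and stood at 5840.5 CPM in Ino80-high wells, against 3925 CPM in Ino80-low wells. Alpk3 was at 228 CPM on day 1, 328 CPM on day 2 and 111 CPM in Ino80-high wells, against 76.9 CPM. Pdlim5 and Xirp2, within 1.5-fold in the day 3 split, were lower on day 1 than in Ino80-low wells. Pdlim5 was at 235 CPM on day 1, against 576 CPM, and Xirp2 at 659 CPM, against 1153 CPM. The number that was higher depended on the scaling. With mitochondrial counts in the total, 3 members were higher and 13 lower on day 1, and 5 were higher and 12 lower on day 2. With median-of-ratios size factors, 3 were higher and 14 lower on day 1, and 5 and 13 on day 2. The median mitochondrial share was 40.7% on day 1 and 43.6% on day 2, against 22.2% in Ino80-low wells.

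**Figure D4:**
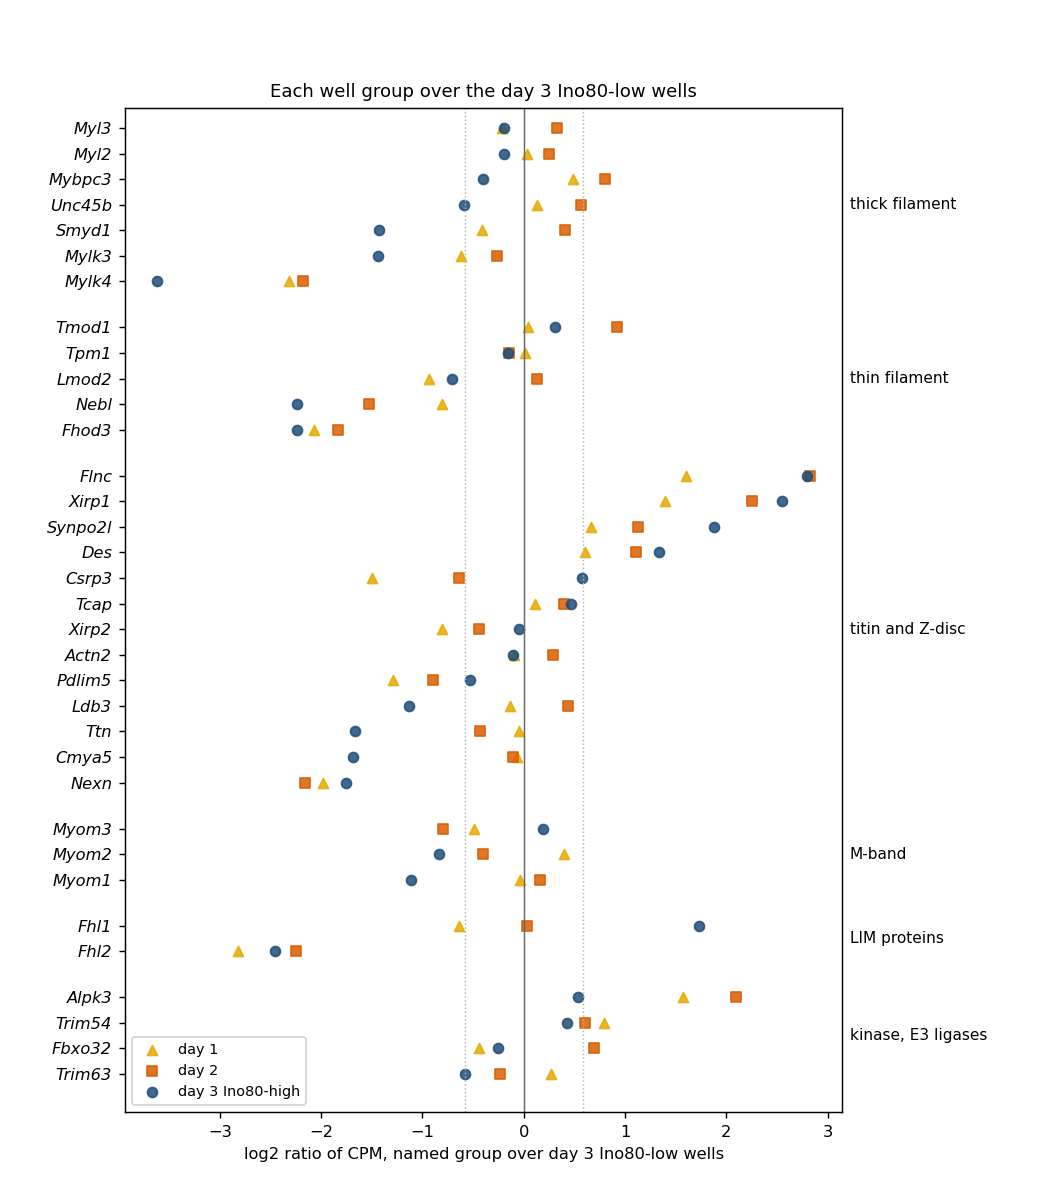
Log2 ratio of pooled CPM over the day 3 Ino80-low wells for each member, in day 1 (triangles), day 2 (squares) and day 3 Ino80-high wells (circles), grouped by role, with dotted lines at 1.5-fold. The 3 sets share the same 437 reference wells. Fhl2, Nexn, Mylk4, Fhod3 and Nebl lie beyond the left dotted line in all 3 sets and Flnc, Xirp1, Des and Synpo2l beyond the right one, whereas for Ttn and Cmya5 only the circles lie beyond the left dotted line.

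Whole libraries averaged these differences. In compartment wells, the mixed day 3 library was higher than day 1 for 9 members and lower for 4 (12.7% and 21.3% of 8099 genes). Against day 2 it was higher for 9 and lower for 9 (8.81% and 29.1% of 8173 genes). At 2-fold, 7 members were higher and 1 lower against day 1, and 5 were higher and 2 lower against day 2. The shares of genes were 5.59% higher and 7.68% lower against day 1, and 3.7% and 11.0% against day 2. Fhl2 was at 73.9 CPM on day 1, 110.1 CPM on day 2 and 357 CPM on day 3, where the Ino80-high wells held 95.1 CPM. Ttn was at 13265 CPM both on day 2 and over all compartment wells of day 3. Those day 3 wells pool 5638 CPM in Ino80-high wells, 17954 CPM in Ino80-low wells and the 46 wells between. The split moved with the scaling here too. With mitochondrial counts in the total, 13 were higher and 1 lower against day 1, and 9 and 2 against day 2. With median-of-ratios size factors the counts were 10 and 1 against day 1, and 10 and 3 against day 2.

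Beyond the members, 36 further genes were examined, a list that also holds genes not confined to the sarcomere, such as Casq2, Jph2, Cryab and Actn4. Of the 36, 34 were measured in the day 3 split. Of these, 12 were higher and 13 lower in Ino80-high wells, with a median log2 ratio of −0.09. Their shares were 35.3% higher and 38.2% lower, against 38.9% and 20.8% of all genes. Tpm2 and Tpm3, tropomyosins of skeletal and other muscle, were at 86.3 and 173 CPM in Ino80-high wells, against 13.4 and 27.8 CPM in Ino80-low wells. Klhl40, a stabiliser of leiomodin 3 and nebulin, was at 321 CPM in Ino80-high and 42.1 CPM in Ino80-low wells, and Synm, an intermediate filament protein that pairs with desmin, at 29.4 and 4.27 CPM. Lmod3, a leiomodin, was lower, at 52.6 CPM in Ino80-high and 222 CPM in Ino80-low wells. Of the 8 measured heavy chain, actin and troponin isoforms, 2 were higher and 4 lower, shares of 25% and 50%, against those same 38.9% and 20.8%.

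Within a group of wells the members did not vary as a block. Over pairs of members counted in at least 90% of wells, the median Spearman rho across wells was 0.05 on day 1, 0.08 on day 2, 0.06 in Ino80-high and 0.10 in Ino80-low wells. Titin stood at the centre of the strongest pairs. Its rho with Cmya5 was 0.56 on day 1, 0.50 on day 2, 0.31 in Ino80-high and 0.57 in Ino80-low wells, and its rho with Xirp2 in Ino80-low wells was 0.61. Against Tcap, which binds its end at the Z-disc, titin had a rho of −0.17 on day 1, −0.46 on day 2, −0.36 in Ino80-high and −0.41 in Ino80-low wells. Titin also followed the mitochondrial share of the well, with a rho of 0.51 on day 1, 0.67 on day 2, 0.60 in Ino80-high and 0.69 in Ino80-low wells, whereas that of Tcap was −0.18, −0.48, −0.54 and −0.50. With Ino80, titin had a rho of 0.62 on day 1 and 0.71 on day 2, and of 0.31 in Ino80-high and 0.17 in Ino80-low wells. These correlations are across wells that share a library, a total and a mitochondrial share, and are given as descriptions.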

How the data were processed

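Polyadenylated RNA of single imaged nanowells was sequenced in 3 libraries, 1 per day. The authors deposited raw counts of reads per gene and well; trimming with cutadapt, alignment to mm10 with STAR and counting with featureCounts are named in the submitters' processing notes, without versions. Neither the strand setting nor the handling of multi-mapped reads is recorded there, and 13 of the 34 members share exonic bases with another gene, 12 of them on the opposite strand. Gene names and lengths came from the GENCODE annotation of mm10.

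Wells with at least 1000 counts and 300 genes were kept (18 of 3394 were left out). They were scaled to 10000 counts, and 2000 variable genes, 30 components and 15 neighbours gave clusters at resolution 0.5 (scanpy 1.11.5, igraph 0.11.9, seed 0). A cluster was named from at least 3 markers that were 2-fold up at 20 CPM or more, unless its 10 leading genes held more markers of another type. Doublets were not called. Counts were summed over wells and scaled to CPM of the nuclear-encoded total, which leaves mitochondrial reads out. Intervals were exact Poisson for levels and exact binomial for ratios (scipy 1.17.1), and the steps were checked on simulated counts. Tests between groups were not made, because each day is 1 library, and the p-value of a well-by-well test would treat wells as replicates. The text gives every member in the day 3 split, with levels for those at least 1.5-fold apart there. For the comparisons with day 1 and day 2, not every member that was apart is named. The further genes beyond the members were named after their values were seen. Members, gene lists, thresholds and comparisons were chosen with earlier results of these data known. All 34 members passed the minimum mean of 5 CPM in the day 3 comparison.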

Additional observations from a re-analysis of the deposited data

Results flagged for a closer look

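Tmod1 and Alpk3 had ratios of opposite sign in different classes of day 3 wells. For Tmod1 the log2 ratio of Ino80-high over Ino80-low wells was 0.31 in the compartment, −0.75 in macrophage-like and 0.99 in fibroblast-like wells. For Alpk3 it was 0.53 in the compartment, −1.25 in macrophage-like and 1.58 in fibroblast-like wells. The difference between classes was not tested. Exons of Tmod1 overlap those of Tstd2 by 1287 bases on the opposite strand, and the strand setting of the counting is not recorded. A single well gave 58.8% of the Tmod1 counts in Ino80-high and 45.8% in Ino80-low fibroblast-like wells, and 36.6% and 35.2% in macrophage-like wells. For Alpk3 a single well gave 44.0% and 27.4% in fibroblast-like wells, and 22.4% and 37.5% in macrophage-like wells.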

How the results depend on the processing

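Over 18 alternatives to the day 3 split, the number of members that were higher in Ino80-high wells ranged from 5 to 7 and the number that were lower from 11 to 19. Shares of all genes were computed only for the main setting, the 2-fold threshold and the macrophage-like and fibroblast-like wells. Apart from Mylk4, which was not measured by median CPM per well, the 19 members kept their direction in 17 alternatives that left the fold threshold at 1.5. Among these, no filter on low values and a mean of at least 50 CPM left each ratio unchanged by construction. The other scalings shifted all log2 ratios by the same amount. Unc45b was within 1.5-fold with mitochondrial counts in the total, without atrial-like wells, in wells with 20 to 35% mitochondrial counts, by mean CPM per well and in macrophage-like wells. Lmod2 was within it at Ino80 of at least 2000 against under 50 CPM, and Des in fibroblast-like wells. The alternatives of all comparisons gave 2876 values for single members, those unchanged by construction and those of members not counted as apart included. Among them no member counted as apart changed sign. Members not counted as apart were left out of that check, and some changed sign in the day 3 split. There the log2 ratio ranged from −1.25 to 1.58 for Alpk3, −0.75 to 0.99 for Tmod1 and −0.28 to 0.53 for Tcap.

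Counts in the other comparisons moved by over 1.5 times as follows. For these comparisons, shares of all genes were computed only at the main setting and at 2-fold. At 2-fold, 3 were higher and 0 lower for day 2 over day 1, 1 was lower for day 3 over day 1, and 5 were higher and 2 lower for day 3 over day 2. At 2-fold against Ino80-low wells, 3 were higher and 6 lower on day 1, and 5 higher and 5 lower on day 2. With mitochondrial counts in the total, 1 was lower for day 3 over day 1 and 2 for day 3 over day 2, while 3 on day 1 and 5 on day 2 were higher than in Ino80-low wells. With median-of-ratios size factors, 1 was lower for day 3 over day 1 and 3 for day 3 over day 2. The same scaling left 3 on day 1 and 5 on day 2 higher than in Ino80-low wells, and 13 lower on day 2. Over all kept wells, 2 were lower for day 3 over day 1. In wells with 20 to 35% mitochondrial counts, 14 were higher and 1 lower for day 3 over day 1, and 5 were lower for day 3 over day 2. Beyond what the scaling and the threshold do by construction, the cause was not tested.

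No paired analysis was possible because each group is 1 library or wells of 1 library. Counting intervals are narrow for most members, since pooled levels rest on 114640319 nuclear-encoded counts in Ino80-high and 170668835 in Ino80-low wells. They treat each read as independent, although the reads carried no molecular identifiers. A narrow interval therefore does not show that the error is small. Nor do the intervals include the spread between animals, which these files do not measure. Myom3 had counts in 60 of 399 Ino80-high and 33 of 437 Ino80-low wells.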
